A study of Mus musculus with 6 samples.

Results

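The genes described here are 39 genes of the interferon response and of antigen presentation, measured in 3 mouse fibroblast lines. They were taken by name from a list of 40 genes, and every probe on the array carrying one of these names was used. Ifi27 was the listed gene for which the array carried no probe of that name. The 39 genes were read by 59 probes, out of 61307 probes under 50090 gene names on the whole array, and 16 of the genes had more than 1 probe. For genes with several probes the one with the highest mean over the 6 arrays is given unless stated otherwise. The list was made with other results of these data known.

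All samples were NIH3T3 cells, an immortalised mouse embryonic fibroblast line, infected with a retrovirus and selected in geneticin. GFP cells carried the fluorescent protein alone and served as control. LT7 and ST7 cells both carried SIRT7, a nuclear deacetylase, fused to GFP. LT7 cells were long and spindle shaped, and ST7 cells were small and came from compact colonies in confluent dishes of the SIRT7 line. Each line was grown from single cell clones, so that a clone and its group cannot be told apart. There were 2 replicates per group, from different passages of the same line according to the methods, so the p-values do not cover the spread between clones.

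Interferons are secreted when a cell detects foreign nucleic acid. They bind receptors at the cell surface, and the signal switches on many interferon-stimulated genes through a DNA element called the ISRE, which is bound by a complex that holds STAT2 and IRF9. Interferon gamma acts on a second element, the GAS, and through IRF1. The products block viral RNA and proteins, destroy vacuoles that hold pathogens, and equip the cell to show peptides on MHC class I. Fibroblasts express many of these genes at a basal level and raise them after interferon. The genes fall into 9 sensors and transcription factors, 19 antiviral effectors, 5 interferon-inducible GTPases and 6 genes of antigen processing.

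Promoter sequences are shown first, because the ISRE is an element through which many interferon-stimulated genes are switched on. RefSeq promoters of build GRCm38.p6, running from 250 bases before to 50 bases after the start of a gene, were at hand for 33 of the 39 genes. The letters GAAANNGAAA, which are the core of an ISRE, were looked for on both strands, and copies could overlap. They were present in 16 of the 33 genes (48.5%), against 3.99% of the 27025 genes in the table, and 7 genes held more than 1 copy. By role they were found in 8 of 15 antiviral effectors, 4 of 5 GTPases, 3 of 7 sensors and transcription factors and 1 of 6 antigen processing genes. The letters TTCNNNGAA, the core of a GAS, were present in 8 of the 33 genes (24.2%), against 9.55% of all genes. A match is a description of the letters and does not show that a factor binds there. The following stretches are written 5′ to 3′ on the strand of the gene, with the fixed letters of the ISRE core in capitals, and are those of genes whose signals are described below.

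Ifit1, chr19:34640773-34640825, plus strand: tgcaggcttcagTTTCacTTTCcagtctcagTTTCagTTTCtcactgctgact
Isg15, chr4:156200863-156200908, minus strand: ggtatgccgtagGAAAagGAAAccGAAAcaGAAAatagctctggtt
Bst2, chr8:71537575-71537614, minus strand: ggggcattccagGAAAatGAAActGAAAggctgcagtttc
Gbp2, chr3:142620592-142620625, plus strand: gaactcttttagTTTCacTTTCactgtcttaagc
Igtp, chr11:58199510-58199543, plus strand: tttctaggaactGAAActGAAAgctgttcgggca
B2m, chr2:122147536-122147569, plus strand: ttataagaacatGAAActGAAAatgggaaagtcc

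Ifit1 held 2 copies, beginning 104 and 85 bases before its start. In Isg15 3 copies overlapped between 78 and 66 bases before the start. In Irf1 the GAS core began 90 bases before the start (chr11:53769912-53769944, plus strand, fixed letters in capitals):

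Irf1: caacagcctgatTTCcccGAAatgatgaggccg

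Tap1 and Psmb9 lie back to back on chromosome 17 and are read away from each other. The 225 bases between their starts (chr17:34187331-34187555, plus strand) are shown because Psmb9 stayed detected in ST7 cells and Tap1 did not. Neither promoter window held the ISRE core. Capitals mark 1 GC box, which was searched as GGGCGG on both strands and was present in 38.2% of all genes:

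Psmb9 to Tap1: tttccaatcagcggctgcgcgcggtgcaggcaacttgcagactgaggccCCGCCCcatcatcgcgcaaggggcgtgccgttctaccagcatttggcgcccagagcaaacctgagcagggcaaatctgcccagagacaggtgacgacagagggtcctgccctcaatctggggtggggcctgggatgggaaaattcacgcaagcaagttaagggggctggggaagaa

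Signals below are the processed signal of the scanner software, with background subtracted and in arbitrary units, before any scaling between arrays. A probe counted as detected in a group when the software marked it well above background on both of its arrays. The arrays labelled ST7 were dim. Of all probes 25.5% to 26.4% were well above background on them, against 53.5% to 57.5% on GFP and 47.4% to 47.5% on LT7 arrays. Log2 changes are given after subtracting the 75th percentile of each array. Over all probes the median log2 difference between ST7 and GFP was -0.68 without scaling and 3.72 after this step, and changes in ST7 are read against that median. In LT7 the median was 0.17. The transcript of Sirt7 itself had signals of 3125 and 2480 on the GFP arrays, while the LT7 arrays read 3633 and 2782. Before scaling, the LT7 signals overlapped those of the GFP arrays and so do not clearly show the label of LT7. The arrays labelled ST7 read 2.85 and 3.28, not well above background, and so go against their label for this probe. Whether the probe also reads the introduced SIRT7 is not given in the sources used here. All 10 fibroblast markers were detected in the GFP and LT7 cells, and 3 of them in the ST7 cells. Of 8 epithelial markers 2, 1 and 4 were detected in GFP, LT7 and ST7 cells. Of 10 leukocyte markers 3, 3 and 1 were detected, and their summed signal ran from 256 to 340 on GFP arrays, from 368 to 463 on LT7 arrays and from 101 to 137 on ST7 arrays. Ptprc and Itgam were well above background on no array. Their part in the results was not tested.

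**Figure D1:**
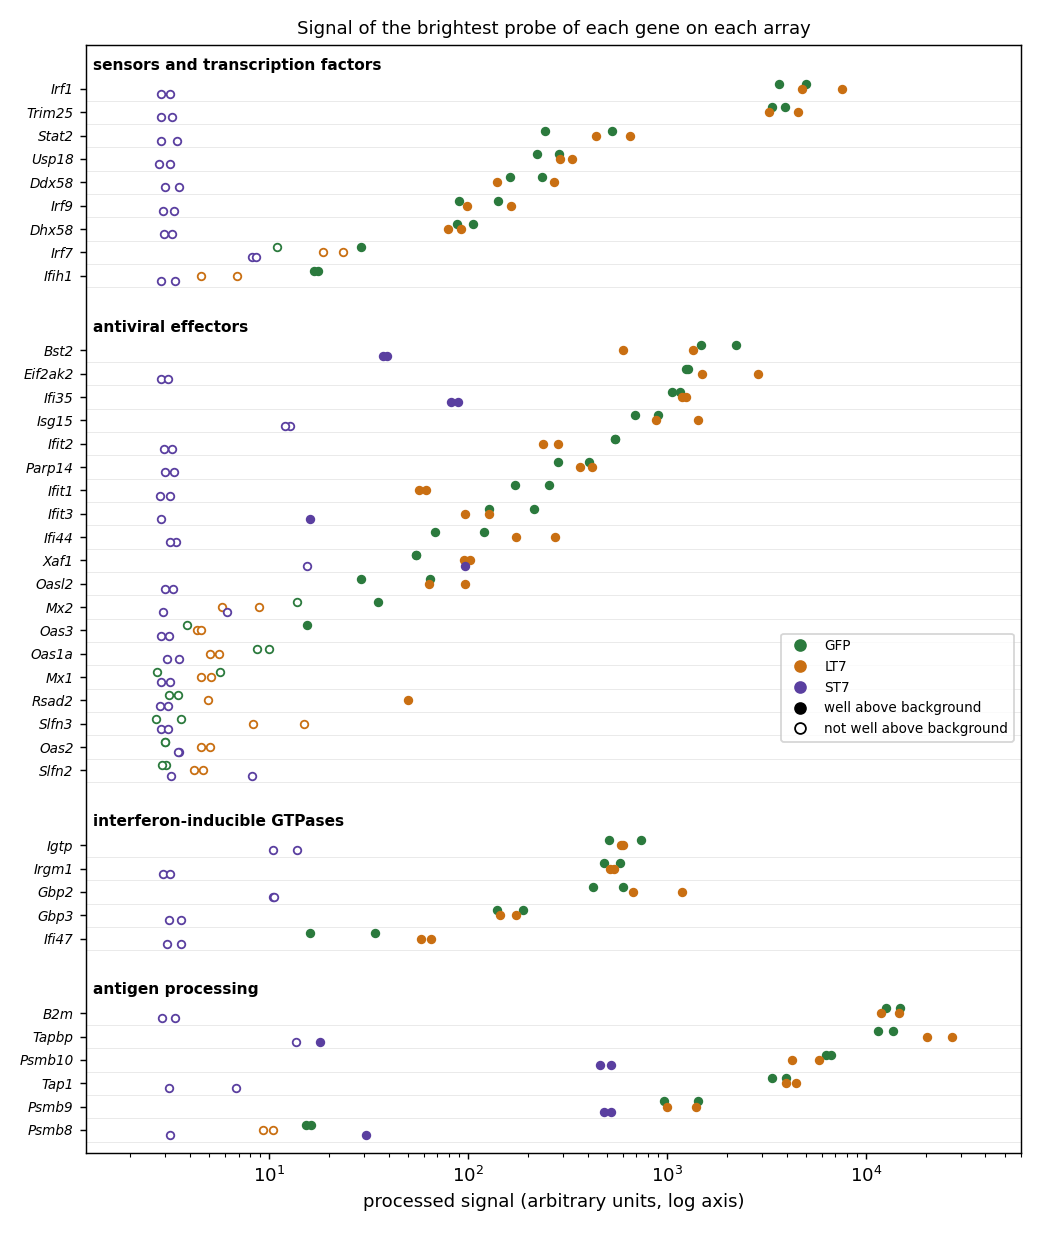
Processed signal of the brightest probe of each of the 39 genes (log axis, arbitrary units, before scaling), 2 arrays per group, with genes grouped by role. Filled points are well above background and open points are not. Points of GFP and LT7 lie near each other for most genes, while ST7 points are open except for 4 genes on both arrays and 4 genes on 1 array.

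In GFP cells 30 of the 39 genes were detected, against 52.4% of all probes. In LT7 cells 28 were detected, against 44.2%, and in ST7 cells 4, against 22.7%. The genes are counted on their brightest probe and the shares over every probe, which favours the genes. Of the 20 other probes of these genes 9 were detected in GFP and 1 in ST7. Detection was kept in LT7 for 28 of the 30, against 83.8% of all probes detected in GFP. The 2 genes not kept were Ifih1, which encodes the RNA sensor MDA5, and Psmb8, an inducible catalytic subunit of the proteasome. The lowest signal that was marked well above background was 20.0 and 22.3 on the LT7 arrays, against 12.5 and 9.89 on the GFP arrays. The GFP signals of both genes, 17.5 and 16.7 for Ifih1 and 16.1 and 15.3 for Psmb8, would thus not have counted as detected on a LT7 array. In ST7 cells 4 of the 30 genes stayed detected (13.3%), against 40% of all probes detected in GFP. These were Bst2, Ifi35, Psmb9 and Psmb10. On neither ST7 array was a signal well above background for 22 of the 30, against 53% of all such probes. For Mx1, Oas1a, Oas2, Slfn2 and Slfn3 none of the 6 arrays gave a signal well above background.

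LT7 cells were compared with GFP cells to ask what overexpressed SIRT7 does in cells that keep a fibroblast shape. None of the 39 genes passed limma at an adjusted p under 0.05, where 0.176% of all probes did, and the lowest adjusted p was 0.10. At an unadjusted p under 0.05 there were 12 genes, 7 higher and 5 lower in LT7, against 27.2% of all probes (22.9% higher and 4.38% lower). These 12 included Slfn3, Oas1a and Oas2, which were well above background on no array, and Mx2, which was so on 1 GFP array alone. The median log2 change of the 39 genes was 0.27, and -1.94 with spike-in scaling. Of the 28 genes detected in both lines 22 were higher and 6 lower in LT7. The median of all probes was itself above 0, at 0.17. Of the 39 genes 22 lay above that median and 17 below. Over the probes well above background on both arrays of any group, the median was -0.02. For the 30 genes among them the median was 0.21, and 22 lay above that of the probes. In 28 of the 39 genes the 2 LT7 values did not overlap the 2 GFP values, 19 above and 9 below, against 53% of all probes (38% above and 15% below). By the fold rule of the study's methods, read here as a log2 ratio of 0.8 in both replicates and a mean above 1, since the methods do not state the scale, 7 genes were called against 5.94% of all probes. Of these 4 were higher and 3 lower, against 2.91% and 3.03% of all probes. The 7 included values near background. Slfn3, called higher, was well above background on no array. Of those called lower, Mx2 was so on 1 GFP array alone and Ifih1 on no LT7 array.

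**Figure D2:**
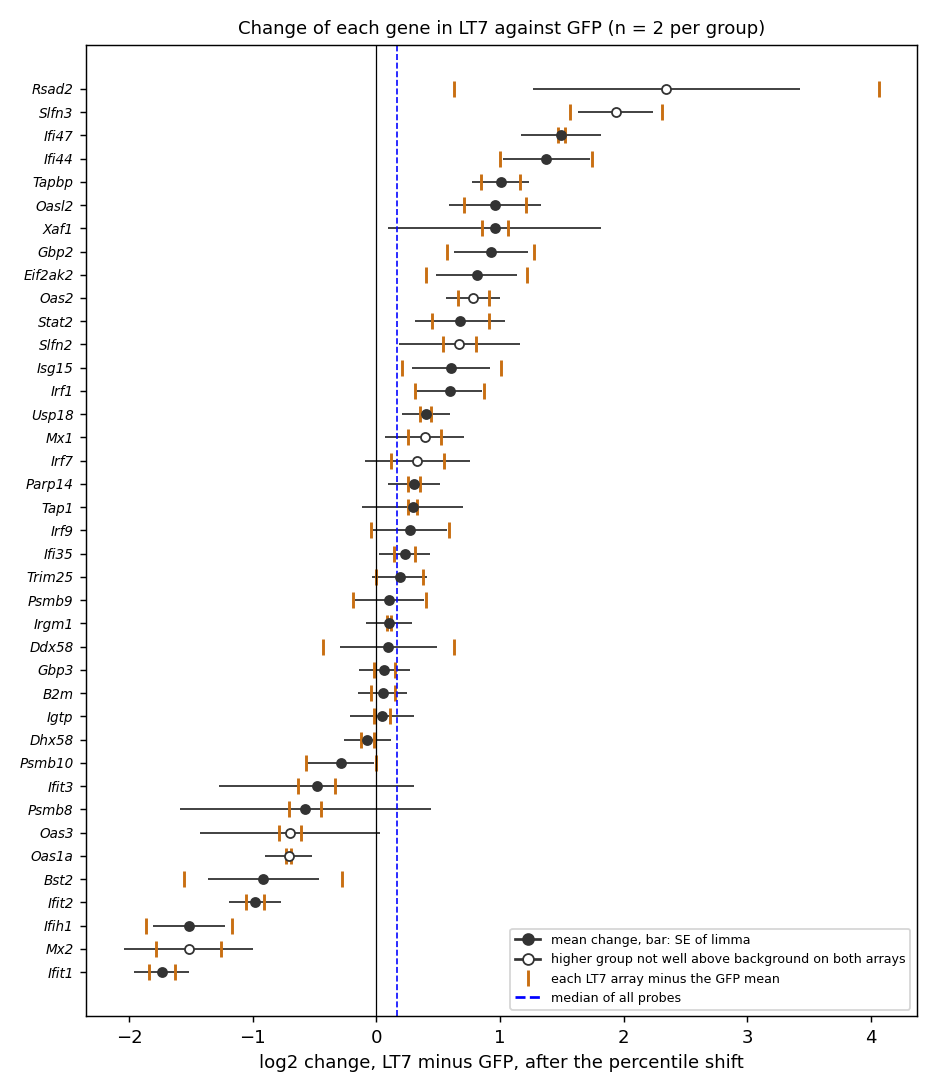
Log2 change in LT7 against GFP after the percentile shift for each of the 39 genes, with the SE of limma as bars and each LT7 array as an orange tick (n = 2 per group). Ifit1 lay at -1.73 and Ifi47 at 1.5, and Rsad2, at the top, had LT7 ticks that lay far apart.

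The IFIT proteins are a family, of which IFIT1 binds viral RNA that lacks the cap of the host and stops its translation. The signals of Ifit1 were 256 and 173 in GFP and 56.7 and 61.4 in LT7, so both LT7 arrays lay below both GFP arrays. Its log2 change was -1.73 (SE 0.22, limma, adjusted p = 0.10), which is 3.33-fold lower. Ifit2 had 546 and 549 in GFP and 282 and 238 in LT7. Its change was -0.98 (SE 0.21, adjusted p = 0.10), and its second probe gave -0.83. Ifit3, with 214 and 128 in GFP and 127 and 95.9 in LT7, had a change of -0.48 (SE 0.79). The 3 listed genes of the family thus all had a change below 0 in LT7, and none passed the test. For Ifit3 the change was smaller than its SE. That SE is wide because all 3 groups share 1 estimate of the spread, and its ST7 signals lay far apart, at 2.86 and 16.0. Both LT7 arrays of Ifit3 lay below both GFP arrays. The 3 genes lie on chromosome 19, and the ISRE copies of Ifit1 are those printed above.

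The GTPases of this set are made after interferon and act on vacuoles that hold bacteria and parasites. All 5 had a log2 change above 0 in LT7, from 0.05 to 1.5, with 2 of them above the median of all probes. Ifi47 had signals of 33.9 and 16.0 in GFP and 64.7 and 58.1 in LT7, a change of 1.5 (SE 0.32, adjusted p = 0.10), which was 0.54 with normexp correction. Gbp2, a guanylate-binding protein, had 602 and 425 in GFP and 1187 and 678 in LT7, a change of 0.92 (SE 0.30, adjusted p = 0.12), which was 0.57 without LT7 replicate 1. For both genes the LT7 arrays lay above the GFP arrays. Igtp, Irgm1 and Gbp3 had changes between 0.05 and 0.10.

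Among sensors and transcription factors, Ifih1 had signals of 17.5 and 16.7 in GFP and 4.55 and 6.86 in LT7, where it was not well above background, so that the size of the difference was not measured. With normexp background correction the difference in log2 was -0.05. A second Ifih1 probe was well above background on no array. Stat2, a partner of IRF9 in the complex that binds the ISRE, had 529 and 243 in GFP and 652 and 441 in LT7. Its raw signals overlapped, and after scaling the change was 0.68 (SE 0.36, adjusted p = 0.32) and 0.24 without GFP replicate 2. Irf1 had 4984 and 3647 in GFP and 7560 and 4771 in LT7, and these raw signals overlapped as well. After the shift the LT7 values of Stat2 and of Irf1 lay above their GFP values. Ddx58 encodes RIG-I, a sensor of viral RNA, and had 4 probes. The one with the highest mean had 236 and 162 in GFP and 140 and 271 in LT7, a change of 0.10, while 2 dimmer ones gave 1.05 and 1.22. Usp18, a protease that removes ISG15 from proteins, had 285 and 222 in GFP and 332 and 290 in LT7. Dhx58, which encodes the related protein LGP2, had 92.0 and 79.5 in LT7 and reached 88.2 on GFP replicate 2. Irf9 had 141 and 90.4 in GFP and 164 and 99.0 in LT7, and Trim25 had 3909 and 3378 in GFP and 4566 and 3278 in LT7. On the probe with the highest mean, Usp18 was the one of these 5 genes whose raw signals did not overlap between the groups. After the shift the values of Dhx58 did not overlap either, with LT7 below GFP. A second Trim25 probe, detected in both lines, had 108 and 145 in GFP and 72.6 and 81.7 in LT7. Its change was -0.61 (SE 0.29). In LT7 probes of 5 of the 16 genes had opposite signs, namely B2m, Ifih1, Oas3, Parp14 and Trim25. In all of these but B2m and Trim25 the probes of opposite sign were not both detected. Irf7, the factor that amplifies interferon production, was well above background on 1 GFP array, at 28.8, and on no other array.

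Among the antiviral effectors, Ifi44 had 120 and 67.9 in GFP and 175 and 273 in LT7, a change of 1.37 (SE 0.35, adjusted p = 0.10). Oasl2, a relative of the oligoadenylate synthetases, had 64.2 and 28.8 in GFP and 96.4 and 63.4 in LT7, a change of 0.96 (SE 0.37, adjusted p = 0.18), which was 0.51 without GFP replicate 2. Xaf1, which promotes apoptosis, had 54.6 and 54.4 in GFP and 95.1 and 102 in LT7. Its change was 0.96 with an SE of 0.86, which is wide because all 3 groups share 1 estimate of the spread and the ST7 arrays of this gene lay far apart. Eif2ak2, which encodes the kinase PKR, had 1249 and 1282 in GFP and 2857 and 1504 in LT7, a change of 0.81 (SE 0.33), which was 0.40 without LT7 replicate 1. Isg15, a ubiquitin-like protein that is attached to other proteins, had 899 and 692 in GFP and 879 and 1426 in LT7. Ifi35 had 1164 and 1055 in GFP and 1184 and 1242 in LT7, and Parp14 had 406 and 285 in GFP and 421 and 365 in LT7. Ifi35 and Parp14 thus lay close in both lines. Bst2 encodes tetherin, which holds budding virus at the cell surface. Its signals were 2220 and 1490 in GFP and 599 and 1353 in LT7, a change of -0.92 (SE 0.45), and LT7 replicate 1 set most of it, since without that array the change was -0.28. Rsad2, the gene of viperin, was well above background on 1 of the 6 arrays, LT7 replicate 2, with a signal of 49.6 against 4.93 on LT7 replicate 1. Its 2 other probes were not well above background there. LT7 replicate 1 was read in a scan of its own, so that the values without it are also those within 1 scan.

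The oligoadenylate synthetases, which activate an enzyme that cuts viral RNA, and the Mx proteins, which trap viral capsids, were near background. Mx2 had 35.1 and 13.8 in GFP and 8.90 and 5.77 in LT7, and Oas3 had 3.83 and 15.4 in GFP and 4.32 and 4.54 in LT7. Each was well above background on 1 GFP array. Oas1a, Oas2 and Mx1 ran from 2.72 to 9.94 in GFP and from 4.52 to 5.56 in LT7, and such values carry no order.

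In antigen processing, Tapbp encodes tapasin, which holds MHC class I at the peptide transporter. Its signals were 13710 and 11542 in GFP and 27261 and 20374 in LT7, and both LT7 arrays lay above both GFP arrays. The change was 1.00 (SE 0.23, adjusted p = 0.10), and the second probe, at 454 and 352 in GFP and 567 and 763 in LT7, gave 0.82. B2m, the light chain of MHC class I, had 14883 and 12648 in GFP and 14710 and 11985 in LT7. Psmb9, an inducible proteasome subunit, had 1439 and 962 in GFP and 1000 and 1398 in LT7. On these probes of both genes the groups overlapped. The second B2m probe had 8375 and 8917 in GFP and 5373 and 6943 in LT7, a change of -0.40 (SE 0.26). Its raw signals did not overlap between the groups, but its values after the shift did.

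ST7 cells were compared with GFP cells to ask what marks the small cells. After the shift 34 of the 39 genes passed limma, 15 higher and 19 lower, against 90.6% of all probes (70.7% higher and 19.8% lower). The median log2 change of the genes was -0.56, against 3.72 for all probes, with 7 genes above that median and 32 below. The median of all probes includes many near background in both groups. Over the probes well above background on both arrays of any group it was 0.71. For the 30 genes among them the median was -1.24, and 5 lay above that of the probes. All 19 genes called lower were detected in GFP, and 18 of them were on neither ST7 array well above background. Of the 15 called higher, 11 were on neither ST7 array well above background, so that their values there are bounds and the direction comes from the scaling. Some genes called lower shared this limit, namely Ddx58, Dhx58, Gbp3, Ifit1, Irf9 and Usp18. After the shift their GFP means lay below the lowest level marked well above background on the ST7 arrays. No fold could be bounded for them, and their direction after the shift was not measured. Without scaling 2 of the 39 genes were higher in ST7. With the percentile taken over probes detected on all arrays 12 were higher, with quantile normalization 9, with spike-in scaling 4, and with normexp background correction 23. The number above the median of all probes was 6 to 8 under each of these settings. In bulk RNA, fewer cells of a type and less RNA per cell cannot be told apart.

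**Figure D3:**
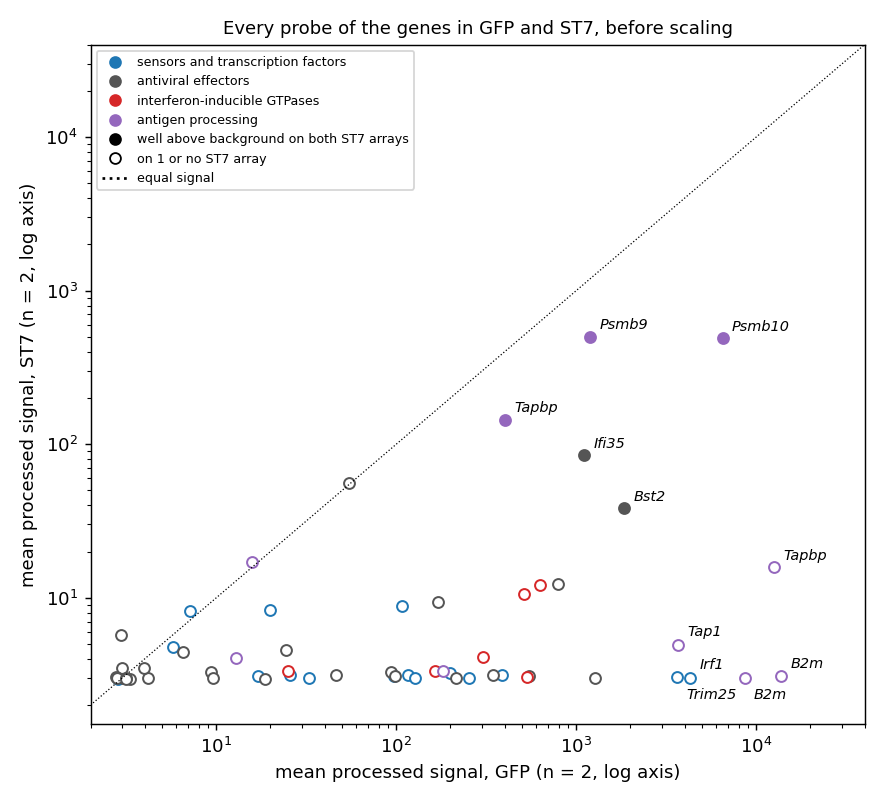
Mean processed signal of each of the 59 probes in GFP (x axis) and ST7 (y axis), both log axes, before scaling, n = 2 per group, coloured by role. Filled points mark detection on both ST7 arrays. Probes of B2m, Irf1 and Trim25 lie at the bottom right, near 3 in ST7, while Psmb9, Psmb10, Ifi35, Bst2 and the second Tapbp probe stay filled.

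Antigen processing was split. B2m fell from 14883 and 12648 in GFP to 2.89 and 3.34 in ST7, which is at least 48.2-fold lower after the shift (log2 change -7.71, SE 0.20, adjusted p = 1.7e-05). Its second probe went from 8375 and 8917 to 2.88 and 3.14, so both probes lost their signal. Tap1, a subunit of the transporter that carries peptides into the endoplasmic reticulum, fell from 3982 and 3373 to 6.77 and 3.14, at least 12.9-fold lower (log2 change -5.24, SE 0.41, adjusted p = 9.2e-05). Its second probe also was lost. Its neighbour Psmb9, by contrast, kept signals of 482 and 523 in ST7 against 1439 and 962 in GFP. After the shift Psmb9 was higher by 3.17 (SE 0.28, adjusted p = 0.00015), 0.55 below the median of all probes, but without scaling it was lower, by -1.23, and with spike-in scaling by -1.04. Psmb10, another inducible proteasome subunit, had 6714 and 6289 in GFP and 521 and 460 in ST7, with a change of 0.67 that did not pass (adjusted p = 0.060). Psmb8 was well above background on 1 ST7 array, at 30.8, and had 3.18 on the other.

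The 2 probes of Tapbp differed in how much signal they kept in ST7. The first fell from 13710 and 11542 to 13.7 and 17.9 (log2 change -5.25, SE 0.23, adjusted p = 1.7e-05). The second went from 454 and 352 to 134 and 155, a change of 2.93 (SE 0.25, adjusted p = 0.00014), and was detected on both ST7 arrays. Before scaling its signals were lower in ST7 as well, and after scaling the change lay 0.79 below the median of all probes, so the opposite signs of the 2 probes come with the scaling. Of the 20 additional probes of genes with several probes, 9 were detected in GFP, and 8 of these were on neither ST7 array well above background, the second Tapbp probe being the exception. After scaling, probes of 5 of the 16 genes had opposite signs in ST7, namely Tapbp, Ddx58, Irf1, Irf9 and Parp14, and in all of these but Tapbp no probe was well above background on a ST7 array.

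**Figure D4:**
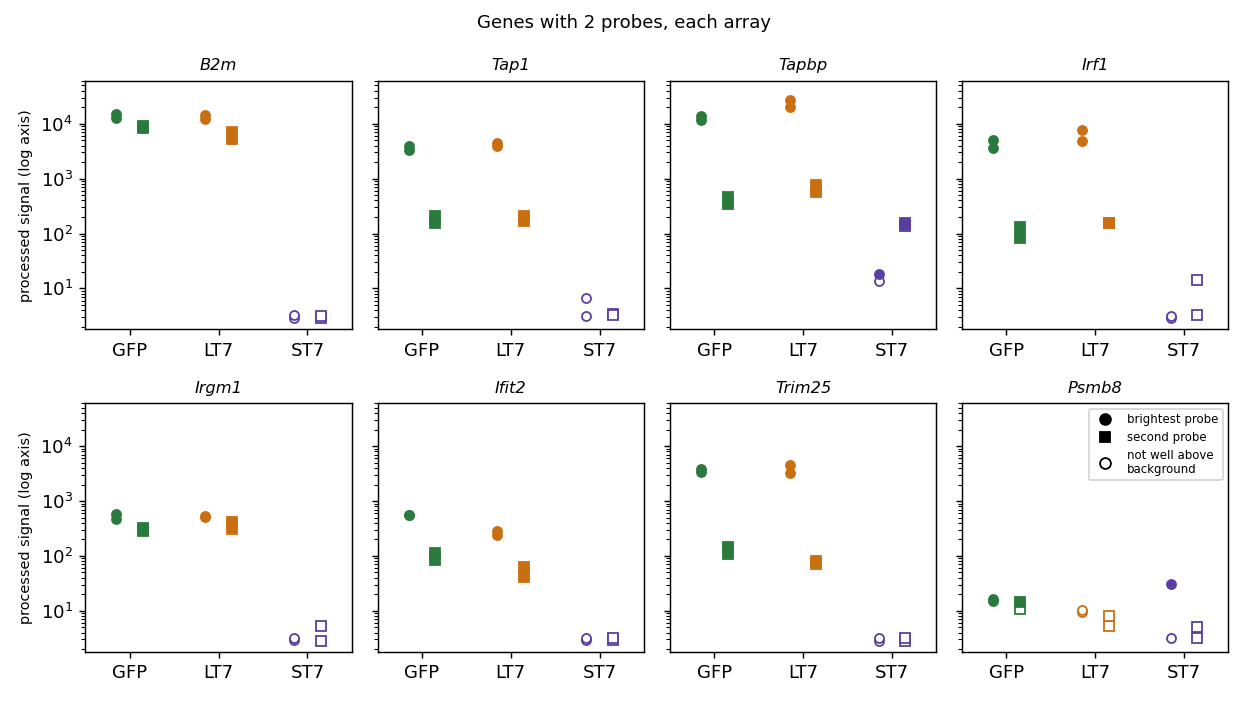
Processed signal of both probes of 8 genes on each array (log axis, before scaling), with circles for the brightest probe and squares for the second. Open symbols are not well above background. Both probes of B2m, Tap1, Irgm1, Ifit2 and Trim25 are open in ST7, and the second probe of Tapbp is filled on both ST7 arrays.

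Of the 9 sensors and transcription factors 0 were detected in ST7, against 8 in GFP, and 0 of 9 lay above the median of all probes. All 8 were on neither ST7 array well above background, against 53% of all probes detected in GFP. Irf1 fell from 4984 and 3647 to 2.86 and 3.17, at least 15-fold lower (log2 change -6.07, SE 0.26, adjusted p = 1.7e-05). Trim25, a ubiquitin ligase that acts on the sensor RIG-I, fell from 3909 and 3378 to 2.85 and 3.22, at least 12.8-fold lower (log2 change -5.83, SE 0.22). Stat2 fell from 529 and 243 to 2.84 and 3.43, at least 1.26-fold lower (log2 change -2.45, SE 0.36, adjusted p = 0.0013). With normexp correction the change of Stat2 was -0.49 and did not pass. Usp18, Ddx58, Dhx58 and Irf9, each detected in GFP, had signals between 2.80 and 3.52 in ST7, and no fold could be bounded for them. The second Irf1 probe was at 132 and 81.7 in GFP and 14.3 and 3.29 in ST7, not well above background there.

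None of the 5 GTPases was detected in ST7, and all 5 were in GFP. Irgm1 fell from 580 and 480 to 2.93 and 3.15, at least 1.85-fold lower (log2 change -3.04, SE 0.19, adjusted p = 3.5e-05), and its second probe lost its signal too. The signals of Gbp3 and Ifi47 in ST7 were 3.06 to 3.60. Gbp2 kept 10.4 and 10.6 and Igtp 13.8 and 10.4, which are not well above background.

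Of the 19 antiviral effectors 11 were detected in GFP and 2 in ST7. Eif2ak2 fell from 1249 and 1282 to 2.86 and 3.10, at least 4.44-fold lower (log2 change -4.33, SE 0.33, adjusted p = 8e-05). Ifit2 fell from 546 and 549 to 2.94 and 3.25, at least 1.92-fold lower (log2 change -3.07, SE 0.21). Isg15 went from 899 and 692 to 12.7 and 12, Parp14 from 406 and 285 to 2.97 and 3.33, and Ifit1 from 256 and 173 to 2.83 and 3.17. None of these 3 was well above background on a ST7 array. The 2 effectors that stayed were Bst2, at 37.4 and 39.2, and Ifi35, at 88.4 and 81.5 against 1164 and 1055 in GFP. Xaf1 had 96.1 on ST7 replicate 1 and 15.5 on replicate 2, and it was well above background on the first alone. Signals of the 31 genes on neither ST7 array well above background ran from 2.80 to 13.8. Of the 5930 probes with a signal of at least 3000 on both GFP arrays, 42% were on neither ST7 array well above background.

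Set against LT7, 31 of the 39 genes passed in ST7, 13 higher and 18 lower, against 90.7% of all probes (71% and 19.7%). The comparison shares the ST7 arrays with the one above. B2m was at least 49.9-fold lower, Irf1 at least 22.6-fold lower and Tap1 at least 15.8-fold lower than in LT7.

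Other genes of the pathway were taken from lists. In LT7 none of them passed limma, over 18 interferon ligands, 15 receptors and signalling genes, 16 genes of nucleic acid sensing, 49 other interferon-stimulated genes, 27 other antigen presentation genes and 7 standard proteasome subunits. Their median log2 changes in LT7 were -0.14, 0.15, -0.19, 0.36, 0.02 and -0.03. Detection in GFP and ST7 was 5 and 4 genes for ligands, 14 and 3 for receptors and signalling, 15 and 3 for nucleic acid sensing, 32 and 6 for other interferon-stimulated genes, 21 and 10 for antigen presentation, and 7 and 6 for proteasome subunits. In ST7 limma called 90.6% of all probes, 70.7% higher and 19.8% lower, and the counts of these genes passing as higher and lower were 17 and 0, 1 and 12, 3 and 9, 25 and 19, 12 and 12, and 4 and 3, in the same order. As above, the direction of genes near background on the ST7 arrays comes from the scaling.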

How the data were processed

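Cy3-labelled RNA of 6 samples, 2 per group, was hybridised to 1-colour Agilent arrays on 1 slide and read in 2 scans. The deposited scanner output holds an intensity per spot, from which the authors' Feature Extraction software (10.5.1.1, per the file headers) had subtracted the background. The authors' series matrix holds log2 values after a percentile shift in GeneSpring and was used as an alternative. The flag columns (well above background, saturated, outlier; coded as other) were used as deposited. Outlier spots were left out, repeated spots averaged, log2 taken and the 75th percentile of each array subtracted. Groups were compared in 1 limma fit (limma 3.58.1, R 4.3.3) of the 6 arrays. P-values were adjusted by Benjamini-Hochberg over the whole array, at a threshold of 0.05. The number of arrays limits the precision.

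Where a group had no array well above background, a fold is given as "at least". It sets the mean of the brighter group against, on each array, the higher of the probe's own value and the lowest value among probes well above background. The genes and lists were chosen with earlier results of these data known. Changes are named for the 12 genes with the largest change in LT7 and the 10 in ST7, among genes detected in the brighter group. Other genes are given by signals, counts and medians. Genes given a change outside this rule (Ifit3, Ddx58, Igtp, Irgm1 and Gbp3 in LT7, Psmb10 and the second Tapbp probe in ST7) were chosen after their values were seen. The same holds for the second probes of B2m and Trim25 in LT7. The scripts were tested on simulated data. Alternatives were other scalings, normexp, a filter on dim probes, leaving out each array, the fold rule, a replicate block and the mean of all probes of a gene. Names are those of the array, and positions and promoters are from RefSeq (GRCm38.p6).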

Additional observations from a re-analysis of the deposited data

How the results depend on the processing

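The number of genes passing in LT7 against GFP, 0 as reported, was 3 with normexp background correction (Ifit1, Ifit2 and Tapbp), 1 with the filter on dim probes (Ifit1), and 7 by the fold rule. It lay between 0 and 1 with each array left out, with Rsad2 passing without LT7 replicate 1 and Slfn3 without LT7 replicate 2. Scaling on the spike-in RNAs, whose mean was 12.9 in log2 on LT7 replicate 1 and 8.47 to 8.75 on the other arrays, turned Ifi47 to -0.72, Ifi44 to -0.84, Tapbp to -1.21, Oasl2 to -1.25, Xaf1 to -1.26, Gbp2 to -1.29, Eif2ak2 to -1.40 and Stat2 to -1.54. The median of the genes in LT7 turned from 0.27 to -1.94 with this scaling, and 1 of the 39 genes was higher instead of 28. In ST7 against GFP the count of 34 became 21 with spike-in scaling and lay between 28 and 36 with each array left out. The count of 31 in ST7 against LT7 became 8 with spike-in scaling and lay between 29 and 31 with each array left out. The median change of the genes in ST7 was 0.58 with normexp. Psmb9 in ST7 was at -1.23 without scaling and -1.04 with spike-in scaling. The causes were not tested. Of called probes in ST7 78.1% were higher as reported, 66.6% with the percentile over detected probes, 57.3% with quantile normalization, 9.31% without scaling and 1.73% with spike-in scaling. Samples share only a replicate number, since the correlations of the deviations of same-numbered samples were 0.08, 0.04 and -0.02. With the replicate block the counts were 0, 34 and 31. Most genes lay near background on the ST7 arrays, which limits what can be measured there.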

Other observations

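A few genes outside the 39 were looked at after their values were seen. Aim2, a sensor of DNA in the cytosol, had signals of 87.3 and 67.3 in GFP and 5.53 and 10.6 in LT7, not well above background there, which is at least 3.39-fold lower (limma, adjusted p = 0.086). Gbp4, a guanylate-binding protein, had 52.3 and 24.5 in GFP and 4.32 and 4.61 in LT7, not well above background there, which is at least 1.58-fold lower (limma, adjusted p = 0.080). The chemokine gene Cxcl10 had 148 and 181 in GFP and 570 and 486 in LT7, with a change of 1.78 (limma, adjusted p = 0.10). None of these passed the threshold.

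In ST7 cells H2-D1, a heavy chain of MHC class I, stayed well above background at 1635 and 2339, against 17834 and 14256 in GFP. Psme1 and Psme2, which encode the PA28 activator of the proteasome, were at 2589 and 2753 and at 4711 and 4266. H2-Ab1, a chain of MHC class II, was well above background on both ST7 arrays, at 79.4 and 88.2, and on no GFP or LT7 array.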
